A study of Mus musculus with 30 samples.

Results

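The genes described here encode the proteins of the cytosolic ribosome of the mouse heart. They are the protein-coding genes of the GENCODE M21 annotation whose symbol begins with Rpl or Rps and a digit, together with Rpsa, Rplp0, Rplp1 and Rplp2. Rpl3, its muscle paralog Rpl3l and the kinase genes beginning with Rps6k were left out. This rule gave 90 genes of the 48820 in the count table. Hearts came from wild-type mice without treatment. They were taken at 10 ages with 3 libraries each: embryonic days 10.5, 12.5, 14.5, 16.5 and 18.5 (E10.5 to E18.5), postnatal day 1 (P1), and 1, 2, 4 and 8 weeks after birth (1W to 8W). The libraries were made from poly(A)-selected RNA of the heart. No label tells whether the libraries of an age were separate animals, so the spread behind every test may be technical.

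Of the 90 genes, 85 had enough counts to be tested: 34 of the small subunit, 46 of the large subunit, 3 of the stalk, and 2 (Rps19bp1 and Rpl7l1) that carry the name without being subunits of the ribosome. Subunits were assigned by symbol, so the copies Rps12-ps3, Rps27rt, Rpl10-ps3 and Rpl9-ps6 are counted among them. Rpl10l, Rpl36-ps4 and Rpl9-ps1 had no count in any library. Rpl36a-ps1 had 10 counts in all and Rpl39l, a testis paralog of Rpl39, had 49. Library totals ranged from 23164934 to 50519452 counts.

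The ribosome is built from ribosomal RNA and a set of proteins that are needed in nearly equal numbers, and its assembly begins in the nucleolus. The messenger RNAs of these proteins belong to the TOP class: they begin with a C and a run of pyrimidines, through which the kinase complex mTORC1 and the protein Larp1 set their translation. In the heart, growth by cell division gives way after birth to growth in cell size. Several ribosomal proteins have paralogs, among them Rpl22l1, Rps27l, Rpl36al and Rpl39l, and the stalk (Rplp0 with Rplp1 and Rplp2) recruits the translation factors.

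The pyrimidine runs are shown for 4 genes that recur in the results: Rps2 and Rpl39, whose proportions moved furthest apart, and Rpl22l1 and Rps27, members of paralog pairs. The windows are RefSeq sequence of GRCm38.p6, with the annotated start site at base 11, and capitals mark the longest pyrimidine run that touches the 10 bases on either side of it.
Rps2 (chr17:24720053-24720082, plus strand): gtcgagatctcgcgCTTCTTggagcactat
Rpl39 (chrX:37085203-37085232, minus strand): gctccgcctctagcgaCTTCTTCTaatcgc
Rpl22l1 (chr3:28805498-28805527, plus strand): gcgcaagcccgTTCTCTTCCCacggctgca
Rps27 (chr3:90213629-90213658, minus strand): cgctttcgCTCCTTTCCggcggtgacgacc
A run of at least 6 pyrimidines at this place was found at 40 of the 76 start sites of the 65 members with an entry, a share of 52.6%, and at 29.1% of 32775 start sites of other genes. The windows shown all have such a run. Rplp0, Rpl36a and Rpl22, which also recur in the results, had longest runs of 5 bases. At the annotated site itself, a C followed by 4 pyrimidines stood at 18.4% of member sites and 2.47% of the others. In the window from 250 bases before to 50 after the start, the motif CCGGAAG, known from GABP and other ETS factors, was present on either strand at 35.5% of member sites and 8.8% of the others. The motif AAGATGGC, known from YY1, was present at 10.5% and 2.73%.

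How well reads can separate a gene from its paralog depends on the sequence. Coding sequence of the Rpl22 and the Rps27 pair is therefore shown from the start codon on, read from GENCODE M21 transcripts, with capitals at the bases that differ between both genes of a pair. For Rpl22 these are coding bases 1 to 300 and for Rpl22l1 the aligned bases 1 to 282, and the Rps27 pair is whole. In GRCm38 the genes lie as follows: Rpl22 at chr4:152325742-152334071 (plus strand), Rpl22l1 at chr3:28805436-28807424 (plus strand), Rps27 at chr3:90212522-90213651 (minus strand) and Rps27l at chr9:66946086-66949516 (plus strand).
Rpl22: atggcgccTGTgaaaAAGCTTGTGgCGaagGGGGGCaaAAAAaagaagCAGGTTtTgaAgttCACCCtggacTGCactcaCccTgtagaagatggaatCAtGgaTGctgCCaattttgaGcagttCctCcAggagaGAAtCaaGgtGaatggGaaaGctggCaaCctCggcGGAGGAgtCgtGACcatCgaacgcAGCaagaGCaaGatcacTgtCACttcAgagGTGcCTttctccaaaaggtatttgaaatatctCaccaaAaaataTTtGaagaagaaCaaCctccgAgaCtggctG
Rpl22l1: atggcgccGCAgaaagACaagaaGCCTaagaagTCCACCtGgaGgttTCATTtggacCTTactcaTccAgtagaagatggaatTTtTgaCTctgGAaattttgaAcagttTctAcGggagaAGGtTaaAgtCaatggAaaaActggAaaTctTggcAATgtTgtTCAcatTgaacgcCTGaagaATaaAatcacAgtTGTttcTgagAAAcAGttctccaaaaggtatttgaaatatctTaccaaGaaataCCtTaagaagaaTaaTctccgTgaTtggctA
Rps27: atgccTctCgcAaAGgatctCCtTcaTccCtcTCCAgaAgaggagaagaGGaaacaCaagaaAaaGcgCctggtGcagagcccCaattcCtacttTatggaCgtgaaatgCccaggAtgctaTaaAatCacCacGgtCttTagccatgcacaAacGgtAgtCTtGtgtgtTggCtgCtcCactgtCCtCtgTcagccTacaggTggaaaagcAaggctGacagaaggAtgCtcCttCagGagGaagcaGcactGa
Rps27l: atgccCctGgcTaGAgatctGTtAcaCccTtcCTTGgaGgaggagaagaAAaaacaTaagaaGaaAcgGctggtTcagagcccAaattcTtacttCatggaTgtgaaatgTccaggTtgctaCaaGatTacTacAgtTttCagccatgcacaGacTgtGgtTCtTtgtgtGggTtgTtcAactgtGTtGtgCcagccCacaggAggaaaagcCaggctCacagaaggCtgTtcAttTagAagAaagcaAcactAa
Over their whole coding sequence Rpl22 and Rpl22l1 shared 259 of 369 aligned bases, with no identical stretch longer than 26 bases. Rps27 and Rps27l shared 194 of 255 bases, in stretches of at most 11. The retrogene Rps27rt was identical to Rps27 over all 255 coding bases, so the division of reads between those genes is uncertain.

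The ribosomal protein genes took 5.13% ± 1.598 (SD, n = 3) of all counts at E10.5 and 0.9296% ± 0.0294 at 8W. At E12.5 the share was 4.09% ± 0.10. It stood at 3.16% ± 0.11 in E14.5 hearts, 3.36% ± 0.019 in E16.5 hearts and 2.24% ± 0.094 in E18.5 hearts. The libraries of E16.5 lay above those of E14.5. After birth the share was 2.08% ± 0.16 for P1, 1.42% ± 0.027 for 1W, 0.9302% ± 0.0555 for 2W and 0.879% ± 0.012 for 4W. The libraries of 2W overlapped those of 8W, and those of 4W lay below both. Differences across the ages had a permutation p of 1e-05 (3 libraries per age), the smallest that 100000 resamples can give. Mitochondrially encoded RNA, which takes counts from all nuclear genes, held 3.02% ± 0.14 of counts at E14.5 and 18.98% ± 0.17 at 8W. Among nuclear protein-coding counts alone, the members held 4.59% ± 0.095 at E12.5, 2.39% ± 0.17 at P1 and 1.24% ± 0.041 at 8W. In whole hearts, fewer cells of a type and less RNA per cell cannot be told apart.

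**Figure D1:**
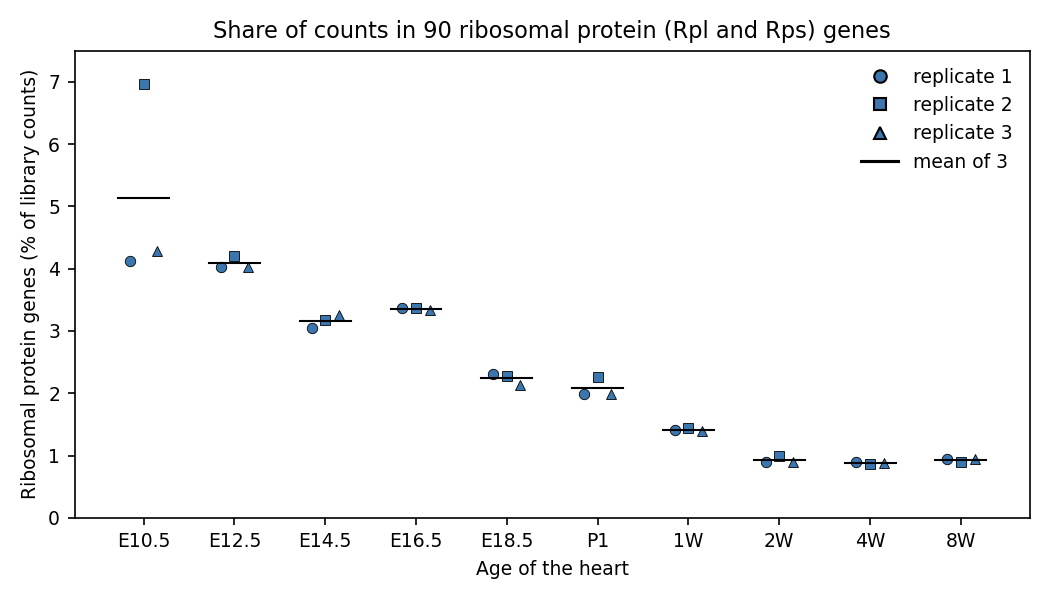
Percent of each library's counts that fell on the 90 genes, by age, for replicates 1 to 3 (symbols) and their mean (line). Replicate 2 of E10.5 lies at 6.97%, apart from the other libraries of that age at 4.13% and 4.28%, and from 2W on all libraries lie below 1%.

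One library stood apart. In replicate 2 of E10.5 the members held 6.97% of the counts, against 4.13% and 4.28% in the other libraries of that age. All 85 tested members were higher in it than in the mean of the other two, with a median log2 ratio of 0.85, a ratio of 1.80, while the median log2 ratio over all genes tested was -0.04. The log2 ratio ranged from 0.17 for Rpl6 to 2.32 for Rps27rt. Short genes had the higher ratios (Pearson r with log2 coding length -0.57 over 85 members of these libraries, a description). Small noncoding RNA, a class that here also takes in ribosomal RNA and mitochondrially encoded ribosomal and transfer RNA, held 11.05% of the counts of replicate 2. In the others it held 4.16% and 3.82%. All mitochondrially encoded RNA, which overlaps this class, held 6.48% in replicate 2 and 4.56% and 4.11% in the others. The main counts of members are therefore given with and without it, also for the later steps, where it enters the common estimate of spread. Where no other fit is named, all libraries were used.

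By level per length, Rps2, Rps27, Rps14 and Rps15 were highest, at 687, 686, 677 and 673 CPM per kilobase of transcript over all libraries. CPM is the count of a gene relative to the library's scaled total. The length is that of 1 annotated coding transcript per gene, whether or not hearts used that form, so this order depends on the choice. The lowest tested were Rpl9-ps6 at 1.10, Rps12-ps3 at 1.84 and Rpl10-ps3 at 2.44 CPM per kilobase, copies of other members, so the split of reads between them is uncertain. Rpl7l1 and Rpl22l1 stood at 21.6 and 22.2 CPM per kilobase.

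Between E10.5 and E18.5 the ribosomal protein genes fell as a body. With TMM scaling (the trimmed mean of M values, which takes most genes as unchanged) and edgeR's quasi-likelihood test, 83 of 85 members fell at an adjusted p below 0.05, where 30.4% of all genes tested fell and 32.9% rose. No member rose (edgeR; 0 at an unadjusted p below 0.05 and 0 in DESeq2). The median log2 change was -1.13, a 2.19-fold fall, and the median of all genes was -0.001. Leaving out replicate 2 of E10.5, 77 fell with a median of -0.73, beside 28.3% of all genes (31.5% rose). With library size alone 85 fell, beside 36.6% of all genes. By subunit, with the copies included, 34 of 34 small subunit genes fell (median -1.21), 45 of 46 of the large subunit (median -1.104) and 2 of 3 of the stalk (median -0.40). Leaving out replicate 2 of E10.5, 1 of the 3 stalk genes fell.

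The steepest fall was that of Rpl22l1, a paralog of the large subunit protein Rpl22. Its level was 35.96, 78.1 and 31.1 CPM at E10.5 and 8.401, 8.001 and 8.32 CPM at E18.5. The change was -2.55 ± 0.22 on the log2 scale (SE, adjusted p = 1.1e-10), and -2.02 ± 0.13 without replicate 2. All libraries of E10.5 were above all of E18.5. Rps27rt fell by 2.08, Rps15a by 1.98, Rpl30 by 1.96 and Rpl36a by 1.93 on this scale. Leaving out replicate 2, Rps15a fell by 1.41, Rpl30 by 1.44 and Rpl36a by 1.25, and the change of Rps27rt was -0.86 ± 0.32 (adjusted p = 0.02). Rpl39, which lines the exit tunnel of the large subunit, was at 196, 554 and 187 CPM at E10.5 and at 95.2, 82.6 and 88.6 CPM at E18.5, without overlap. It fell by 1.82 ± 0.27 (adjusted p = 3.8e-06), and by 1.11 ± 0.10 without replicate 2.

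A few members moved little. Rpl28, a protein of the large subunit, was at 279.8, 424 and 267 CPM at E10.5 and at 281, 275 and 258 CPM at E18.5, and the groups overlapped. Its change was -0.25 ± 0.12 (adjusted p = 0.067), and -0.01 ± 0.10 without replicate 2. Rplp2 of the stalk changed by -0.40 ± 0.18 (adjusted p = 0.051) and by 0.01 ± 0.11 without it. Rpl14 fell by 0.30 ± 0.08, Rplp0 by 0.34 ± 0.11 and Rpl13 by 0.40 ± 0.11. In the fit without replicate 2, Rplp0 was not called (-0.11 ± 0.09, adjusted p = 0.3), nor was Rpl13 (-0.16 ± 0.08, adjusted p = 0.091).

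Around birth few members moved. Between E18.5 and P1, 3 of 85 fell, where 19.0% of all genes fell and 19.8% rose, and the median change was -0.02. None rose in edgeR's test, with 1 at an unadjusted p below 0.05 and 0 in DESeq2. Rpl36al, a paralog of Rpl36a, was at 67.9, 64.6 and 61.98 CPM at E18.5 and at 47.6, 43.05 and 49.4 CPM at P1. Every library of P1 was below those of E18.5, and the change was -0.47 ± 0.09 (adjusted p = 8.6e-05). Rpl14 fell by 0.22 and Rpl7l1 by 0.21. Rps14, a small subunit protein, had the largest value above 0: 386, 369 and 365 CPM at E18.5 and 555, 717 and 519 CPM at P1. These groups did not overlap, but the change of 0.68 ± 0.28 had an adjusted p = 0.062. In the fit without replicate 2 of E10.5, 7 members rose and 18 fell (21.1% and 20.4% of all genes), and with library size alone 17 fell (24.5% of all genes).

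From P1 to 8W the ribosomal protein genes were lower again, with 81 of 85 below 0. Of 85, 60 fell and 2 rose, where 35.1% of all genes fell and 31.8% rose. The median was -0.43, and -0.10 over all genes. Here the scaling sets the size: with library size alone 85 of 85 fell, with a median of -1.203, but 65.2% of all genes then fell (11.5% rose), with a median of -0.88. The count rested in part on single libraries: without replicate 2 of P1, 36 fell (32.6% of all genes fell and 30.3% rose), and without replicate 2 of E10.5, 74 fell (35.5% of all genes, 32.2% rose).

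Rps2, a small subunit protein near the mRNA entry, stood at 656, 728 and 658 CPM at P1 and 910.4, 887 and 908 CPM at 8W. No library of P1 reached those of 8W, and with TMM scaling the change was 0.41 ± 0.13 (adjusted p = 0.0053), whereas it was -0.37 with library size alone. Rpl7l1, a protein of ribosome assembly, rose by 0.32 ± 0.08 (adjusted p = 0.00091) and changed by -0.45 with library size alone. The direction of both thus depends on the scaling. Rpl39 fell from 70.5, 90.2 and 78.6 CPM to 31.3, 30.6 and 34.3 CPM, without overlap (-1.31 ± 0.27, adjusted p = 0.00022). Rpl22l1 fell from 6.82, 7.58 and 6.9996 CPM to 4.35, 3.14 and 3.63 CPM (-0.95 ± 0.25, adjusted p = 0.0015). Rpl36a fell by 0.95 and Rps12 by 0.89, and for both all libraries of 8W lay below those of P1. Rps12-ps3 fell by 1.66, but its mean was below 1 CPM at both ages, and the split of reads with Rps12 is uncertain.

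The fall came in steps. From E14.5 to E16.5, 82 of 85 members had a value above 0, with a median of 0.23. Of them 12 rose, a share like that of all genes, of which 14.1% rose and 12.0% fell. Rplp0, the base of the stalk, was at 713, 844 and 830.1 CPM at E14.5 and 1059, 1112 and 1006 CPM at E16.5 (0.41 ± 0.11, adjusted p = 0.006). Leaving out replicate 2 of E10.5, 50 rose (16.1% of all genes). With library size alone 1 rose (7.82% of all genes) and 64 of 85 were above 0, with a median of 0.08. Between E16.5 and E18.5 all 85 were below 0 and 71 fell, with a median of -0.56, where 11.2% of all genes fell and 13.0% rose. With library size alone 79 fell (14.3% of all genes), and without replicate 2 of E10.5, 83 fell (13.9%).

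The first step depended on the library that stood apart. From E10.5 to E12.5, 47 members fell and 2 rose (24.4% and 31.0% of all genes), with a median of -0.42. Leaving out replicate 2 of E10.5, 17 fell and 13 rose (22.8% and 30.1%), and the median was -0.03. In that fit Rplp2 rose by 0.67 ± 0.11, Rpl28 by 0.66 ± 0.10 and Rpl14 by 0.38 ± 0.08, and Rpl22l1 fell by 0.86 ± 0.12. From E12.5 to E14.5, 31 fell, where 7.80% of all genes fell and 10.5% rose, with a median of -0.38. Leaving out replicate 2 of E10.5, this count was 81 (10.9% of all genes) at the same median.

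After birth the fall lasted to 2W. From P1 to 1W, 57 members fell (17.0% of all genes fell and 18.8% rose), with a median of -0.49. From 1W to 2W, 30 fell (14.1% and 15.5%), with a median of -0.35. In the fit without replicate 2 of E10.5 these counts were 76 (18.5% of all genes fell, 20.3% rose) and 69 (15.7% fell, 17.1% rose). Without replicate 2 of P1 the count from P1 to 1W was 36 (13.6% of all genes). From 2W to 4W, 3 rose (15.8% of all genes), namely Rps2 (0.41 ± 0.13), Rpl7l1 (0.28 ± 0.08) and Rpsa (0.31 ± 0.11), the last chosen here after its values were seen. From 4W to 8W, 12 rose (11.8% of all genes, 12.1% fell), with a median of 0.25. Rpl10, an X-linked protein that completes the large subunit, was at 307, 328 and 310.4 CPM at 4W and 417, 426 and 393 CPM at 8W, without overlap. Without replicate 2 of E10.5, 19 rose and 1 fell from 2W to 4W (18.1% and 14.2% of all genes), and 57 rose from 4W to 8W (14.7%). With library size alone the median from 2W to 4W was -0.09 with 7 falls (27.6% of all genes), and from 4W to 8W it was 0.10 with 4 rises (4.15% of all genes). The direction between 2W and 4W therefore depends on the scaling.

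In edgeR's test no member rose from E12.5 to E14.5, E16.5 to E18.5, P1 to 1W or 1W to 2W, and none fell from E14.5 to E16.5 or 4W to 8W (0 in each at an unadjusted p below 0.05 and 0 in DESeq2). None fell from 2W to 4W by edgeR (1 at an unadjusted p and 1 in DESeq2, and 13.0% of all genes). By the mean of each age, 73 of 85 members were highest at E10.5, 10 at E12.5 and 2 at E16.5. When replicate 2 of E10.5 was left out these counts were 49, 29 and 6, and 1 member was highest at 8W. The lowest mean was at 2W for 68 and at 4W for 17. Under library size alone it was at 4W for 62, at 8W for 12 and at 2W for 11.

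**Figure D2:**
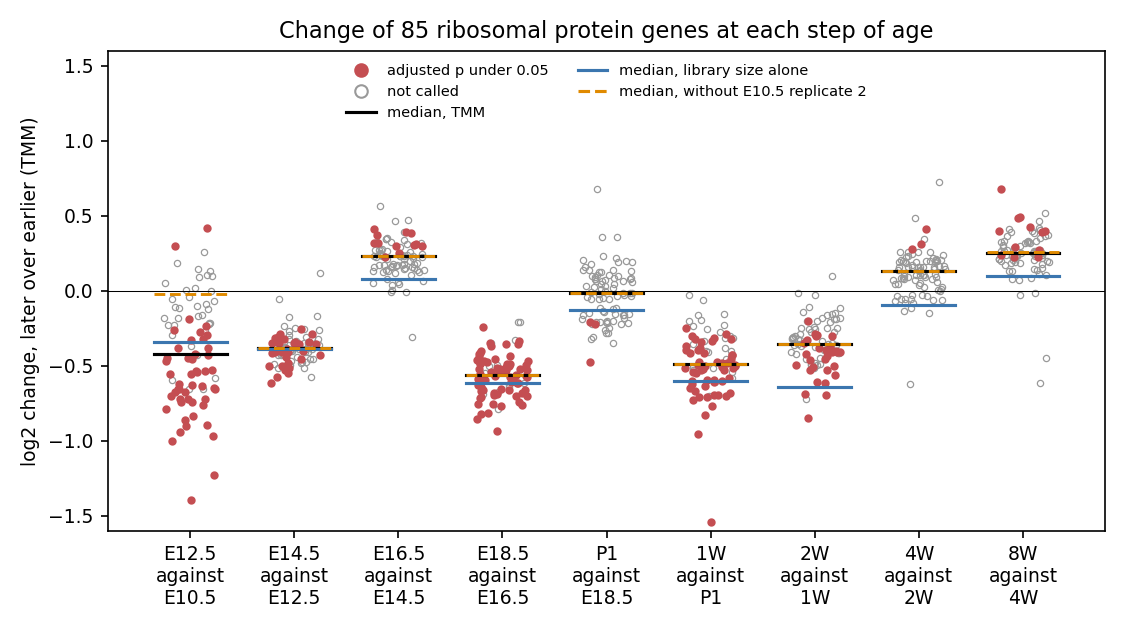
Log2 change of each of 85 members between neighbouring ages with TMM scaling (points, red where the adjusted p was below 0.05), with the medians under TMM, library size alone and without replicate 2 of E10.5 (short lines). The median without that library is -0.03 at the first step against -0.42 with it, and library size alone differs most from TMM from 1W to 2W, with medians of -0.64 and -0.35.

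Within the group the proportions shifted. The fit was repeated with the summed member counts of a library as its size, which does not depend on the scaling between libraries. Relative to that sum, 65 of 85 members changed across the ages, where 92.7% of all genes did. With TMM scaling 85 of 85 changed (93.6% of all genes), and likewise with library size alone (96.5%). From E10.5 to E18.5, 20 rose and 25 fell within the sum (63.5% and 4.70% of all genes). From E18.5 to P1, 2 rose and 2 fell (10.8% and 11.1% of all genes). Rps14 (0.66 ± 0.16) was among those that rose, and Rpl36al and Rps12 fell. From P1 to 8W, 6 rose and 18 fell (40.5% and 20.9%).

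Rps2 had the largest ratio of its part at 8W to that at E12.5, 2.24. It made up 2.47% ± 0.26 of member counts at E10.5, 2.66% ± 0.057 at E12.5, 3.43% ± 0.036 at P1 and 5.96% ± 0.11 at 8W, with the highest mean, 6.16% ± 0.38, at 4W. The lowest library of 8W, at 5.85%, was above the highest of P1, at 3.47%. Its rise within the sum from P1 to 8W was 1.74-fold (adjusted p = 2e-06). Rpl7l1 rose 1.64-fold and Rps29 1.33-fold in this measure.

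Rpl39 had the smallest ratio, 0.352. Its part was 0.601% ± 0.083 at E12.5, 0.401% ± 0.025 at P1 and 0.212% ± 0.0080 at 8W. Rpl22l1, with the highest F of all members (44.2), went from 0.114% ± 0.017 at E10.5 to 0.0591% ± 0.0052 at E12.5 and 0.0245% ± 0.0040 at 8W. Rpl36a had a ratio of 0.427 and Rps15a one of 0.635. Rpl39 and Rpl36a are both encoded on the X chromosome. The other X-linked members, Rpl10 and Rps4x, fell by 0.26 ± 0.11 and 0.60 ± 0.10 from P1 to 8W with TMM scaling. All 4 fell at the threshold in this comparison and from E10.5 to E18.5. So did 60 and 83 of all 85 members, and 35.1% and 30.4% of all genes.

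At the other end was Rpl11, which binds the p53 regulator Mdm2 when ribosome assembly fails. It held 1.07% ± 0.065 of member counts at E10.5, 0.968% ± 0.010 at E12.5, 1.001% ± 0.035 at P1 and 0.959% ± 0.014 at 8W (edgeR, F = 0.38, adjusted p = 0.94). Rpl13a, with 1.78% ± 0.20 at E10.5 and 1.64% ± 0.068 at 8W, had the next lowest F (0.59), followed by Rpl9-ps6, Rps3 and Rpl27a. Missing the threshold does not show that their parts were equal at all ages.

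**Figure D3:**
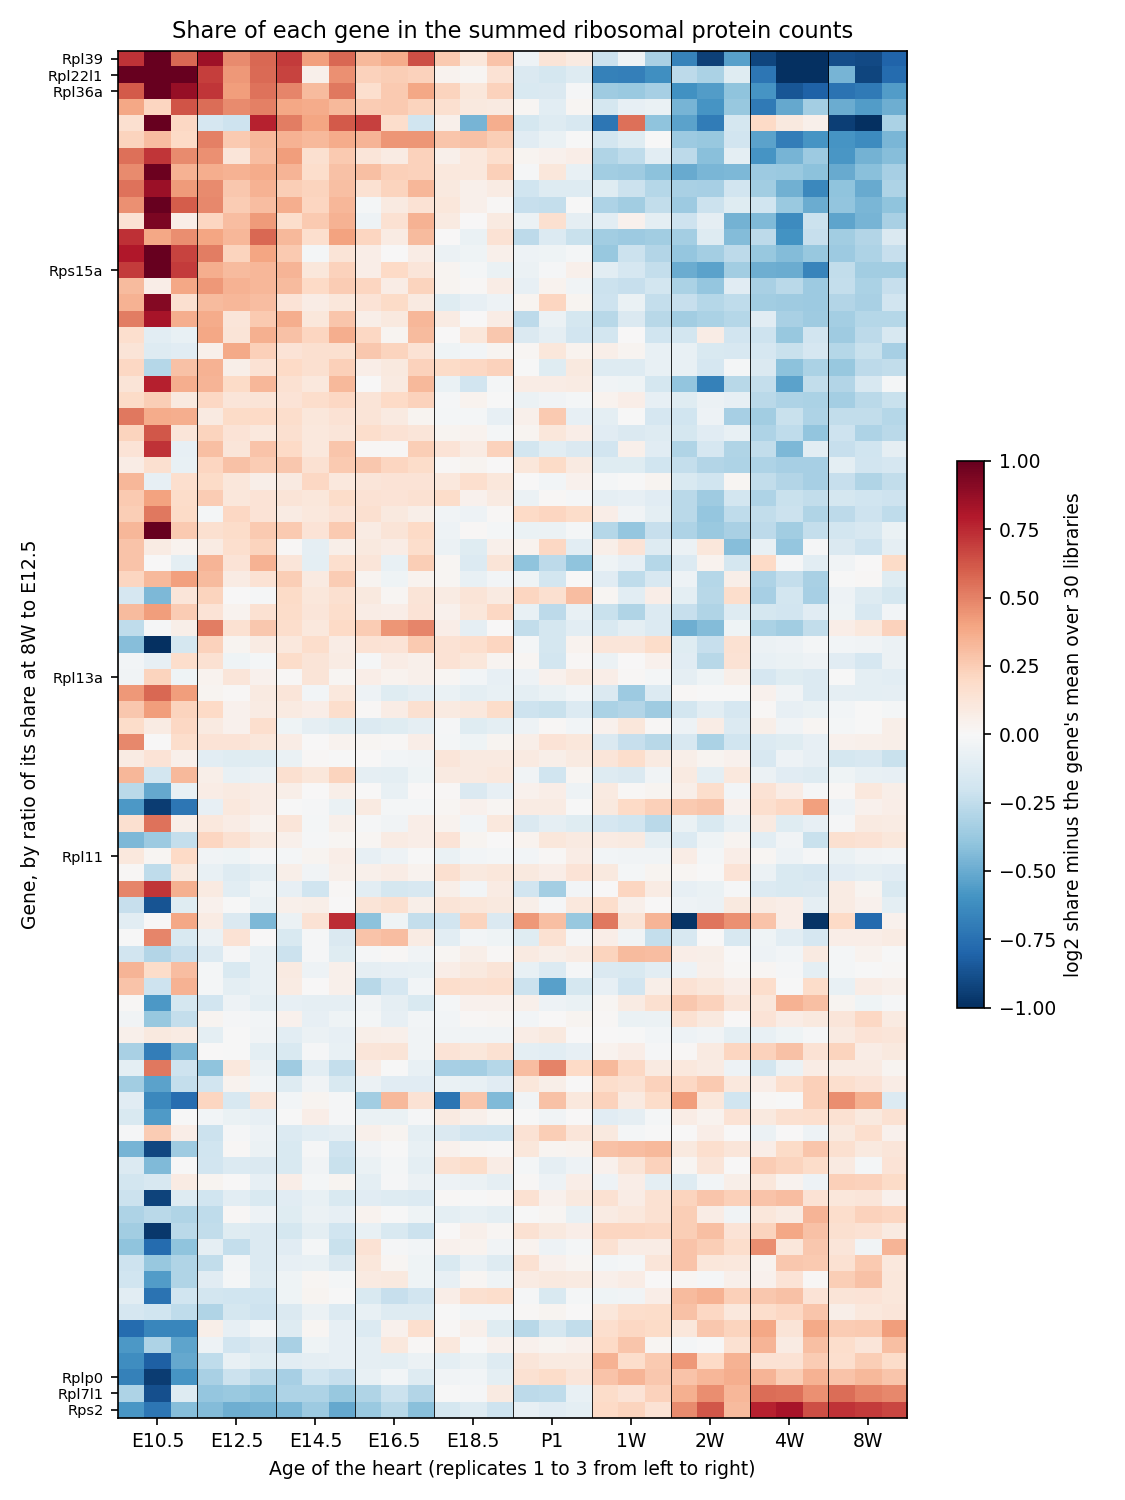
Log2 of each gene's share of the summed member counts, minus its mean over 30 libraries, for the 84 genes with counts in every library (rows, ordered by the ratio of 8W to E12.5) in each library (columns, by age), with colours at their limit beyond 1 in either direction and some of the genes described here labelled. Rpl39, Rpl22l1 and Rpl36a at the top go from red to blue with age, and Rps2 and Rpl7l1 at the bottom from blue to red.

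The small subunit genes together held 41.8% ± 0.58 of member counts at E10.5 and 41.8% ± 0.14 at 8W. The large subunit without the stalk went from 54.4% ± 0.59 to 51.5% ± 0.13. The 3 stalk genes went from 3.63% ± 0.072 at E10.5 and 4.65% ± 0.16 at E12.5 to 5.67% ± 0.17 at P1 and 6.36% ± 0.072 at 8W. Rplp0 was the largest of them, with 2.36% ± 0.30 at E10.5, 3.25% ± 0.12 at E12.5, 4.35% ± 0.092 at P1 and 4.795% ± 0.091 at 8W. Within the sum from E10.5 to E18.5, Rplp0 rose 1.601-fold (adjusted p = 1.2e-05) and Rplp2 1.59-fold (adjusted p = 1.4e-05), while Rplp1 changed by -0.19 ± 0.14 (adjusted p = 0.23). Between P1 and 8W Rplp2 rose 1.46-fold, and Rplp0 changed by 0.14 ± 0.12 (adjusted p = 0.34).

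The balance of 4 paralog pairs differed across the ages, a measure that needs no scaling between libraries. Rpl22l1 made up 15.9%, 16.3% and 11.9% of the counts of the Rpl22 pair at E10.5 and 5.19%, 3.8004% and 4.58% at 8W. The means were 14.7% ± 2.4 at E10.5, 8.93% ± 0.18 at E12.5, 6.68% ± 0.32 at P1 and 4.52% ± 0.70 at 8W (permutation test, adjusted p = 2e-05 over the 5 pairs tested, the smallest that the resamples can give after adjustment). Rpl22 itself also fell, by 1.41 ± 0.15 from E10.5 to E18.5 and by 0.35 ± 0.15 from P1 to 8W.

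The share of Rpl36al in its pair moved in the other direction, though Rpl36al itself did not rise. From E10.5 to E18.5 it changed by -0.98 ± 0.09 (edgeR, adjusted p = 2.3e-11), and Rpl36a by -1.93 ± 0.25. From P1 to 8W the changes were -0.06 ± 0.09 (adjusted p = 0.57) and -0.95 ± 0.26. The coding sequence of Rpl36al was 87.9% identical to that of Rpl36a, beside 66.9% for the Rpl22 pair and 76.1% for the Rps27 pair. The division of reads may therefore be less certain here. Rpl36al held 35.2%, 19.2% and 32.3% of the Rpl36a pair at E10.5, with the low value in replicate 2. The share was 30.8% ± 1.6 at E12.5, 40.3% ± 0.95 for E18.5 and 37.1% ± 2.7 for P1. At 4W it was 55.5% ± 1.9 and at 8W 52.3% ± 1.5 (permutation test, adjusted p = 2e-05). From 4W on every library had more counts on Rpl36al than on Rpl36a. Per length Rpl36a was still the higher at 8W, with 84.7 CPM per kilobase of transcript against 35.1 for Rpl36al. That order rests on the annotated transcripts chosen, of 483 bases for Rpl36a and 1276 for Rpl36al, as both have 318 coding bases. Rpl7l1 went from 9.32% ± 0.33 of its pair with Rpl7 at E12.5 to 17.4% ± 0.37 at 8W (permutation test, adjusted p = 2e-05).

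Rps27l, a target of p53, had no single direction. It held 18.3% ± 2.4 of the Rps27 pair at E10.5, 14.4% ± 0.54 at E12.5, 18.5% ± 0.33 for E18.5, 14.8% ± 1.3 for P1, 21.5% ± 2.2 for 2W and 18.8% ± 2.7 for 8W (permutation test, adjusted p = 0.0002). The means of E12.5, E14.5, E16.5 and P1 were low and the others high. Rpl39l reached at most 0.232% of its pair in a library (permutation test, adjusted p = 0.5). Rpl10l had no count beside 30167 counts of Rpl10 at 8W, so no share could be tested for that pair.

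**Figure D4:**
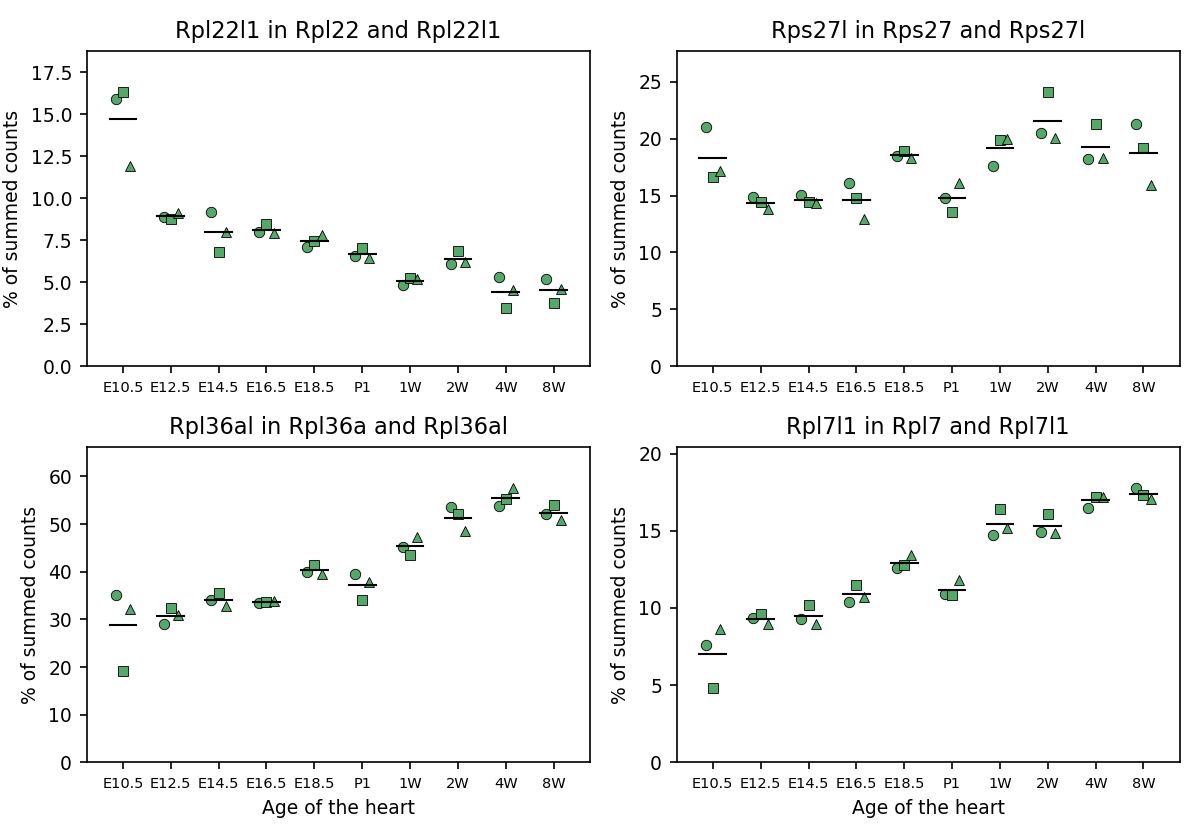
Percent of the summed counts of a pair that fell on the paralog, by age, for 4 pairs, with replicates 1 to 3 (circle, square, triangle) and their mean (line). Rpl22l1 falls from 14.7% to 4.52% and Rpl36al reaches 55.5% at 4W, while Rps27l goes down, up, down and up again.

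Some of these genes serve as references in quantitative PCR. Of 8 such genes (Rplp0, Rpl13a, Rps18, Rpl32, Rpl19, Rpl4, Rpl27 and Rpl30), all 8 fell from E10.5 to E18.5 (7 without replicate 2 of E10.5, when Rplp0 was at -0.11 ± 0.09, adjusted p = 0.3) and 7 from P1 to 8W, where 30.4% and 35.1% of all genes fell, with medians of -1.16 and -0.42. Rpl30 was at 289, 653 and 279.9 CPM at E10.5, 98.6, 112 and 102 CPM at P1 and 62.9, 64.6 and 71.3 CPM at 8W. Its libraries of 8W lay below those of P1. Rps18 fell by 1.47 ± 0.20 and then by 0.83 ± 0.20. Rplp0 had the smallest change in the first comparison (-0.34 ± 0.11) and Rpl4 in the second (-0.20 ± 0.08, adjusted p = 0.031). Rpl19 was not called from P1 to 8W (-0.31 ± 0.15, adjusted p = 0.067). With library size alone all 8 fell in both, beside 36.6% and 65.2% of all genes.

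Of 14 members whose loss causes Diamond-Blackfan anaemia, 14 fell from E10.5 to E18.5 and 11 from P1 to 8W. Of all 85 members 83 and 60 fell in these comparisons, and of all genes 30.4% and 35.1%. Rps19, the gene most often affected, fell from 118, 143 and 121 CPM at P1 to 75.9, 78.4 and 76.2 CPM at 8W, without overlap (-0.73 ± 0.14, adjusted p = 3.6e-05). Rps24 fell by 0.93 ± 0.18 and Rps26 by 0.88 ± 0.12. Rpl26 and Rps29 were among those not called from P1 to 8W, with Rps29 at 0.02 ± 0.17.

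In the 3 main comparisons longer coding sequences went with log2 changes that were less negative or above 0. From E10.5 to E18.5 the median was -1.48 for the 28 shortest members (75 to 396 coding bases), -1.08 for the middle 28 and -0.75 for the 29 longest (564 to 1257 bases). From P1 to 8W these medians were -0.58, -0.46 and -0.32. As a description over 85 members that share libraries, Pearson's r was 0.48, 0.28 and 0.33 (Spearman's rho 0.53, 0.32 and 0.31) for E10.5 to E18.5, E18.5 to P1 and P1 to 8W. It was 0.06, 0.06 and 0.04 over 6732 other protein-coding genes of the same range of length. When replicate 2 of E10.5 was left out the first was 0.31. Between neighbouring ages r ranged from -0.10 (4W to 8W) to 0.47 (E16.5 to E18.5). It was 0.10 from E14.5 to E16.5, 0.08 from 2W to 4W and 0.29 from E10.5 to E12.5, the last at -0.07 without replicate 2 of E10.5, so not every step had the relation. The part of RNA quality in this was not tested.

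**Figure D5:**
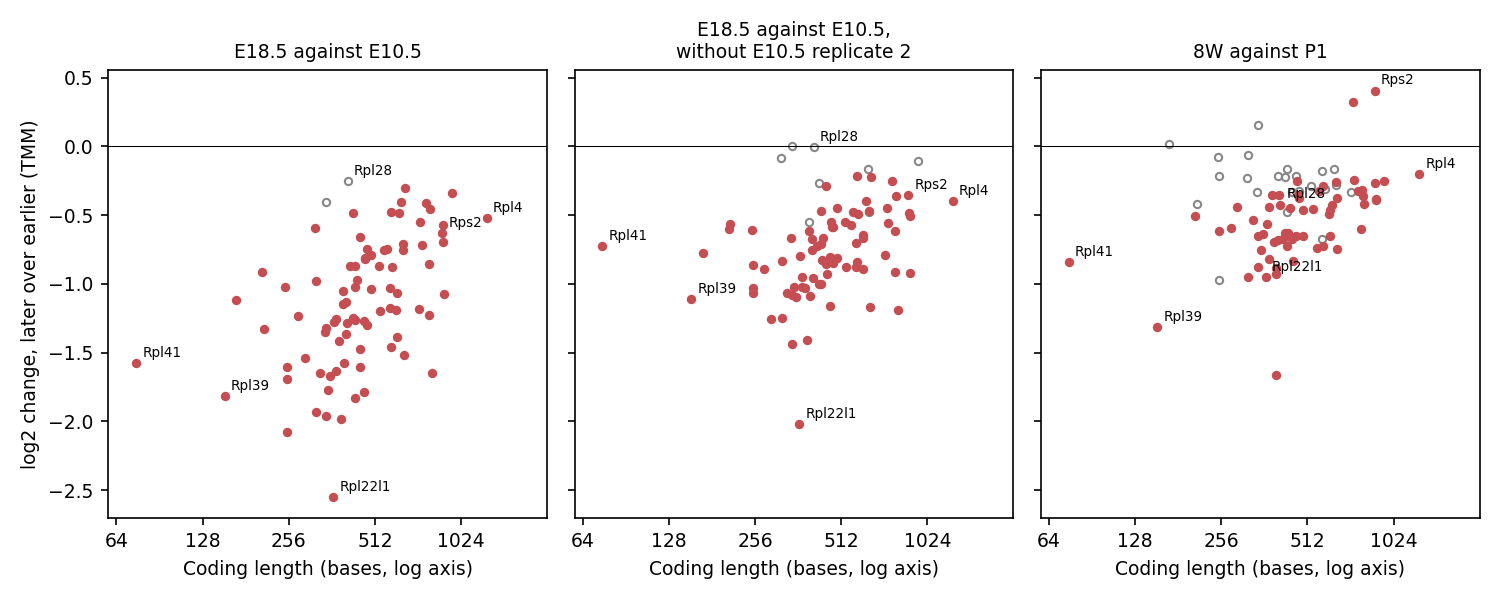
Log2 change (TMM) against coding length on a log axis for 85 members, red where the adjusted p was below 0.05, for E18.5 against E10.5 with and without replicate 2 of E10.5 and for 8W against P1. Short genes such as Rpl39 lie lower than long ones such as Rpl4, with r of 0.48, 0.31 and 0.33.

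Other genes of the translation apparatus were read against the same share of all genes. Rack1, a scaffold on the small subunit, and Fau, a fusion gene that yields a ribosomal protein, fell from E10.5 to E18.5 (-1.01 ± 0.14 and -0.73 ± 0.21). Rack1 was at -0.70 ± 0.09 (adjusted p = 6.2e-08) and Fau at -0.20 ± 0.09 (adjusted p = 0.064) when replicate 2 of E10.5 was left out. Between P1 and 8W Rack1 and Fau fell (-0.49 ± 0.14 and -0.48 ± 0.21).

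Of 6 elongation factor genes, 5 fell and 1 rose from E10.5 to E18.5, where 30.4% of all genes fell and 32.9% rose. Eef1b2 was at -1.08 ± 0.11 and Eef2 at 0.42 ± 0.09. Without replicate 2 of E10.5, 4 fell and 1 rose (28.3% and 31.5% of all genes). With library size alone 0 rose and 5 fell from P1 to 8W (11.5% and 65.2% of all genes). With TMM scaling 3 rose and 1 fell in that comparison (31.8% and 35.1% of all genes). The one that fell, Eef1a1, which brings aminoacyl-tRNA to the ribosome, went from 5239 ± 383 CPM to 1276 ± 27.5 CPM (SD; -2.04 ± 0.09, adjusted p = 9.6e-20). Of 29 initiation factor genes, 19 fell and 1 rose from E10.5 to E18.5 (median -0.50). Without replicate 2 of E10.5, 16 fell and 3 rose. Between P1 and 8W, 14 rose and 6 fell, whereas 3 rose and 21 fell with library size alone, beside the same shares of all genes.

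Of 41 ribosome assembly genes, 32 fell and 1 rose from E10.5 to E18.5 (median -0.60), where 30.4% of all genes fell and 32.9% rose. From E18.5 to P1, 23 fell and 1 rose, where 19.0% of all genes fell and 19.8% rose. In the fit without replicate 2 of E10.5, 32 of them fell from E10.5 to E18.5 and 24 from E18.5 to P1. Npm1, an abundant nucleolar chaperone, fell by 1.82 ± 0.07 from E10.5 to E18.5, and the snoRNP protein Nop56 fell by 0.84 ± 0.08 across birth. Between P1 and 8W, 24 rose and 6 fell, with a median of 0.27, where 31.8% of all genes rose and 35.1% fell. With library size alone 1 rose and 28 fell, a share of falls like that of all genes (65.2%, and 11.5% rose). Of 14 genes of RNA polymerase I and its factors, 8 rose and 2 fell from P1 to 8W. With library size alone 1 rose and 9 fell, again a share of falls like that of all genes. The snoRNA host genes are noncoding transcripts of the TOP class. They fell in 8 of 8 cases from E10.5 to E18.5 (median -1.48) and from P1 to 8W (median -1.901). All 8 also fell with library size alone, beside 36.6% and 65.2% of all genes, and without replicate 2 of E10.5. Snhg1 went from 22.3 CPM at P1 to 3.96 CPM at 8W.

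Among 13 genes of mTORC1 signalling, 9 rose and 2 fell from P1 to 8W (31.8% and 35.1% of all genes). With library size alone 4 rose and 7 fell (11.5% and 65.2% of all genes). Larp1, which holds TOP mRNAs back when mTORC1 is inactive, rose from 95.7 to 204 CPM (1.09 ± 0.11), and the translation inhibitor Eif4ebp1 fell by 1.104 ± 0.12. Of 9 genes of the Myc network, whose activators drive ribosome assembly, 6 fell and 1 rose from P1 to 8W. With library size alone 9 fell, beside the same shares of all genes. Across birth, from E18.5 to P1, 5 of these 9 rose and 3 fell (19.8% and 19.0% of all genes), with a median of 0.31. Mycn fell by 2.04 ± 0.15 between E18.5 and P1, and Myc by 2.501 ± 0.15 from P1 to 8W.

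The markers of the heart's cell types moved over the same ages. Those of cardiomyocytes summed to 21776 to 39383 CPM at E10.5 and 141908 to 156920 CPM at 8W. These sums and those below use TMM-scaled totals, so their size depends on the scaling. From P1 to 8W, 7 of 8 cardiomyocyte markers rose and 0 fell (31.8% and 35.1% of all genes). With library size alone 1 rose and 2 fell (11.5% and 65.2% of all genes). Proliferation markers summed to 1438 to 1651 CPM at E10.5, 840.5 to 878 CPM at E18.5, 206 to 285 CPM at P1, 449 to 554 CPM at 1W and 54.4 to 60.6 CPM at 8W. All 8 of them fell between E18.5 and P1, where 19.0% of all genes fell. Erythroid markers summed to 4253 to 5680.1 CPM at E14.5, 18873 to 33515 CPM at E16.5 and 2317 to 6603 CPM at E18.5. Of these 9 markers 7 fell from E12.5 to E14.5 (7.80% of all genes) and 7 rose from E14.5 to E16.5 (14.1%). From E16.5 to E18.5, 9 fell (11.2%). These were the directions of the members' medians. From 2W to 4W, 5 rose (15.8%), the direction of the members' median with TMM scaling but not with library size alone. They went the other way from E10.5 to E12.5, as 6 rose and 2 fell (31.0% and 24.4%), and from 4W to 8W, as 8 fell (12.1%). From E18.5 to P1, 2 rose and 0 fell (19.8% and 19.0%), with a median of 0.56 beside -0.02 for the members. In the steps P1 to 1W and 1W to 2W, 0 rose and 0 fell (18.8% and 17.0%, then 15.5% and 14.1%). The marker medians there were -0.80 and -0.31, beside -0.49 and -0.35 for the members. Fibroblast markers summed to 707 to 798 CPM at E10.5, 10781 to 11259 CPM at 1W and 2579.9 to 2870.02 CPM at 8W. Endothelial markers stood at 756 to 977 CPM, 1755 to 1818 CPM and 1276 to 1326 CPM at these ages, and macrophage markers at 19.6 to 23.2 CPM, 153 to 165 CPM and 476 to 506 CPM. From P1 to 8W, 2 fibroblast markers rose and 4 fell, and 1 and 6 did with library size alone. For endothelial markers these counts were 1 and 5, then 0 and 6. For macrophage markers they were 7 and 0, then 5 and 0. No marker of these lists was at 0 at any age. The part of these cells in the ribosomal protein results was not tested.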

How the data were processed

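RNA-seq of 30 heart libraries, 3 at each of 10 ages, was read from 1 table. The authors deposited estimated counts per Ensembl gene. Per the submitters' processing notes, reads were processed with fastp 0.18.0 and STAR 2.5.3a on GRCm38/mm10. Which tool, annotation and strand setting made the counts is not stated in the labels. Of the values, 6.9% were not whole (tolerance 1e-06), and counts were rounded before testing. Symbols came from GENCODE M21, and 0.22% of counts lay in genes without one.

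Counts were tested with edgeR 4.0.16 (R 4.3.3; TMM, filterByExpr, robust quasi-likelihood fit of 10 age means over all 30 libraries, 20 residual degrees of freedom), with Benjamini-Hochberg adjustment over 19280 genes and a threshold of 0.05, after a test on simulated data. Standard errors are the log2 change divided by the root of F. CPM were computed here with TMM-scaled totals. A second fit used the summed member counts as library size. Shares were compared with permutation tests of 100000 resamples (two-sided F). Alternatives were DESeq2 1.42.0, other scalings and filters, 6 samples alone, a replicate block and leaving out each library.

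Members named are those with the largest and smallest changes in the 3 main comparisons and in the fit relative to the sum, the stalk, the paralogs and the PCR references. Others are named from the gene lists, and Rpl6, Rps15 and Rpsa after their values were seen. The members and lists were chosen with earlier results of these data known. Some results are not reported here.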

Additional observations from a re-analysis of the deposited data

How the results depend on the processing

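The 85 changes across ages, the absence of rises from E10.5 to E18.5 and the permutation p of the share (1e-05) held in every setting run, and the falls from E10.5 to E18.5 ranged from 77 to 85 when each library was left out in turn. Elsewhere 1 library could decide a count, and the cause was not tested. Without replicate 2 of E10.5 most counts of later steps were higher. Leaving out each library gave 1 to 18 falls and 0 to 7 rises from E18.5 to P1, 36 to 74 falls and 2 rises from P1 to 8W, 17 to 62 falls and 2 to 13 rises from E10.5 to E12.5, 13 to 81 falls from E12.5 to E14.5, 2 to 50 rises from E14.5 to E16.5 and 44 to 83 falls from E16.5 to E18.5. After birth it gave 36 to 76 falls from P1 to 1W, 13 to 69 falls from 1W to 2W, 0 to 1 falls and 0 to 19 rises from 2W to 4W, and 4 to 57 rises from 4W to 8W. The highest of these came without replicate 2 of E10.5, except 85 falls from E10.5 to E18.5 and 62 from E10.5 to E12.5. The lowest came without replicate 2 of P1 (36 falls to 1W and 36 to 8W), replicate 1 of E14.5 (13 falls, 2 rises), replicate 3 of E18.5 (44), replicate 2 of 1W or replicate 1 of 2W (13 each), replicate 1 of 2W (0 rises) and replicate 1 of 8W (4). Relative to the summed members it gave 61 to 81 changes across ages, 20 to 28 falls and 16 to 22 rises from E10.5 to E18.5, 0 to 22 falls and 1 to 7 rises from E18.5 to P1, and 9 to 29 falls and 3 to 14 rises from P1 to 8W, with 22, 7, 29 and 14 again without replicate 2 of E10.5, 9 without replicate 2 of P1 and 3 without replicate 3 of 8W.

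Under library size alone, with the share of all genes in brackets, 17 members fell from E18.5 to P1 (24.5%) and 0 rose from P1 to 8W (11.5%). From E14.5 to E16.5, 1 rose (7.82%), and from 1W to 2W, 80 fell (36.2%). From 2W to 4W, 7 fell (27.6%) and 0 rose (6.46%), and from 4W to 8W, 4 rose (4.15%). Upper quartile factors gave 0 rises from P1 to 8W and 7 from 4W to 8W. From E18.5 to P1, 1 fell with no filter, 5 with a minimum of 1 CPM in 3 libraries and 5 with protein-coding genes only. For upper quartile factors, these filters and most fits that left out a library, the shares of all genes are not given. A fit to the 6 samples of a comparison alone, with the share of all genes called in brackets, gave 16 falls (21.7%) and 6 rises (22.8%) from E18.5 to P1, 11 falls (26.6%) and 0 rises (25.2%) from E10.5 to E12.5, 80 falls (18.1%) from E12.5 to E14.5, 62 rises (21.2%) from E14.5 to E16.5, 58 falls (11.2%) from 1W to 2W and 63 rises (21.2%) from 4W to 8W. DESeq2 gave 1 fall from 2W to 4W and, relative to the sum, 5 falls from E18.5 to P1 and 10 rises from P1 to 8W. Relative to the sum with no filter, 1 fell and 1 rose from E18.5 to P1 and 10 fell from P1 to 8W. The ratio of the share at P1 to that at 8W was 2.24, 1.92 among nuclear protein-coding counts and 1.95 without mitochondrially encoded, globin and small noncoding RNA.

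Whether replicates of the same number were paired was not settled. Of 135 pairs of libraries with the same number 7 had a correlation above 0.1 (range -0.10 to 0.12). Yet 17 of 30 libraries correlated best with their own number, more than an even spread over the 3 numbers would give. That excess was not tested. A replicate block gave 1 rise from E18.5 to P1 and 6 from 2W to 4W, and moved no other count of members by over 1.5 times.

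Some changes turned sign, and 4 of them were then called by edgeR. From E18.5 to P1 under library size alone, Rpl11 was at -0.046, Rpl13a at -0.050, Rpl19 at -0.072, Rpl27 at -0.048, Rpl28 at -0.079, Rpl7 at -0.087, Rplp1 at -0.031, Rps15a at -0.093, Rps2 at -0.033 and Rps3 at -0.0086. From P1 to 8W under library size alone, Rpl7l1 was at -0.45, Rplp2 at -0.62, Rps2 at -0.37 and Rps29 at -0.76, the 4 that passed the threshold. Upper quartile factors had this effect too, as Rplp2 was at -0.040 and Rps29 at -0.18. Rps29 was also at -0.0034 with the 1 CPM minimum, -0.086 with protein-coding genes only and -0.0074 with 6 samples alone. Leaving out each library, the change from E18.5 to P1 ranged from -0.0055 to 0.13 for Rpl13a, -0.024 to 0.078 for Rpl19, -0.072 to 0.013 for Rpl22, -0.015 to 0.13 for Rpl27, -0.040 to 0.073 for Rpl28, -0.066 to 0.028 for Rpl30, -0.029 to 0.073 for Rpl7, -0.059 to 0.18 for Rplp1, -0.27 to 0.42 for Rps12-ps3, -0.037 to 0.078 for Rps15a and -0.36 to 0.017 for Rps27rt. Leaving out each library, the change from P1 to 8W ranged from -0.069 to 0.13 for Rps29. Leaving out each library, the change from E10.5 to E18.5 ranged from -0.60 to 0.0060 for Rplp2. The library whose loss turned the sign was most often replicate 2 of P1, and for Rplp2 replicate 2 of E10.5.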
